A study of Mus musculus with 31 samples.

Results

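The comparison described here set untreated peritoneal macrophages of PPARγ knockout mice (KO) against untreated macrophages of control mice. It asked which genes depend on the receptor when no ligand is added. The libraries were chosen by their labels as the 4 KO and the 4 control libraries of untreated cells, 8 of the 31 libraries of the series. All mice were C57BL/6 mice of 8.5 weeks, and their macrophages were drawn into the abdominal cavity by an injection of 3% thioglycollate, an irritant broth. The cells were harvested 4 days after the injection, kept overnight in DMEM culture medium and then lysed with no further agent, so the thioglycollate and the overnight culture are shared by both groups. The genotype is given as PPARgammaMPKO for the KO mice and as control for the others. The labels do not say what drives the deletion, which part of the gene is lost or what the control mice carry. The other 23 libraries hold cells of both genotypes after 24 h with DMSO, rosiglitazone or IL4. Of these, mainly the DMSO libraries are used below, and all 31 libraries enter only 1 alternative fit.

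PPARγ is a nuclear receptor that pairs with RXR, binds fatty acids and their derivatives, and activates genes by which cells take up, store and burn lipid. In macrophages it is known for the fatty acid transporter CD36, for lipid droplet proteins and for LXRα, another nuclear receptor, which drives cholesterol efflux. It is also known to restrain inflammatory genes when a ligand is bound. PPARγ and RXR bind direct repeats of a short half-site with 1 base between the copies.

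The values are FPKM, fragments scaled by transcript length and library size, as the authors deposited them. Each library was divided by its scale factor, the median ratio to the geometric mean of each gene, which was 1.28, 0.614, 0.797 and 1.11 for KO libraries 1 to 4 and 0.934, 1.17, 1.14 and 1.15 for control libraries 1 to 4. KO libraries 2 and 3 had the lowest sums of deposited FPKM. Counts of reads are not given, but the low values of most genes fell on whole multiples of a common step, which put the relative depth at 0.755 to 1.171 in KO libraries and at 0.835 to 1.123 in control libraries. Values of single libraries below stand in the order of libraries 1 to 4. On the values as deposited, before rescaling, between 8628 and 9900 genes per library reached 1 FPKM. The labelled cell type showed in the values: all 19 macrophage identity genes in the table were detected at 1 FPKM or more in some library, and their rescaled values summed to 2939 to 3575 FPKM in KO libraries and 3351 to 3583 FPKM in control libraries. Csf1r, the receptor for the macrophage growth factor, averaged 110.3 ± 21.8 FPKM in KO cells and 106 ± 10.4 FPKM in control cells (SD, n = 4 each). The Y-linked gene Ddx3y was above 0 in KO library 2 and control library 1 alone, so each group held 1 library with and 3 without it.

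The test covered 9688 genes that reached 1 FPKM in 3 or more of the 8 libraries. A gene could meet this filter through 1 group alone, and its p is then no separate support. Of these, 176 (1.82%) passed at an adjusted p under 0.05 in limma, 50 of them higher (0.516%) and 126 lower (1.3%) in KO cells. Passed or not, 4979 of the 9688 were higher and 4709 lower in KO cells. Counts within gene lists below are to be read beside these shares. All differences below are KO minus control on the log2(FPKM + 1) scale of rescaled values, given ± SE with 4 libraries a group, while levels in rescaled FPKM are given ± SD (n = 4 each). A gene that passed is called, and its call is lost where it no longer passes. The scale understates changes of genes below a few FPKM. The KO and control values of all 176 did not overlap, as was also so for 859 of the 9688 genes (8.87%), 397 higher (4.1%) and 462 lower (4.77%) in KO cells. A difference of at least 1 in size was reached by 33 of the lower and 9 of the higher genes. When libraries of the same number were paired by a replicate block, 306 genes passed, 139 higher and 167 lower in KO cells. Leaving out 1 library at a time moved the count between 65, without control 2 or control 4, and 424, without KO 3. On the values as deposited the median difference of all genes was -0.21, against 0.00 after rescaling, and 177 genes passed, 94 of them higher and 83 lower, with 70 in common with the 176.

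**Figure D1:**
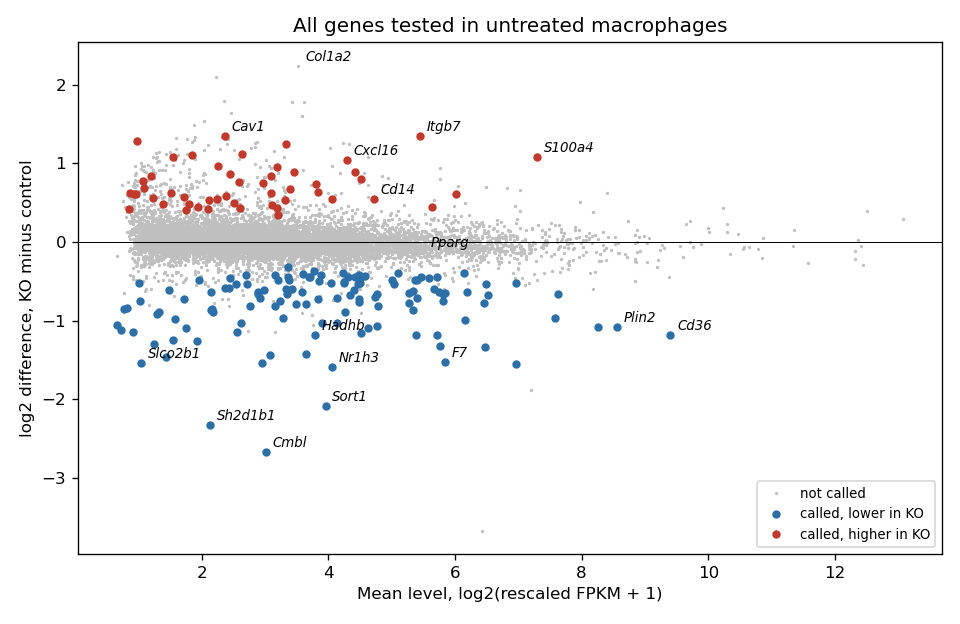
Each point is 1 of the 9688 genes tested, with its mean level over the 8 libraries as log2(rescaled FPKM + 1) on the x axis and its log2 difference, KO minus control, on the y axis. The 50 genes called higher are red, the 126 called lower are blue and the rest are grey, and the 2 largest called differences are those of Cmbl (-2.67) and Sh2d1b1 (-2.32), both lower in KO cells.

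Pparg itself was listed at 40.8, 47.5, 35.6 and 46.1 FPKM in KO libraries, against 44.0, 49.8, 45.9 and 45.3 FPKM in control libraries. The values of the groups overlapped, and the difference was -0.13 ± 0.10, adjusted p = 0.746. A value per gene counts reads from all exons, so it cannot show the loss of some of them, and the labels could not be checked by it. The partner of PPARγ, Rxra, averaged 13.4 ± 5.26 FPKM in KO cells and 12.0 ± 1.14 FPKM in control cells (0.09 ± 0.20, adjusted p = 0.95), and of 20 nuclear receptors and coregulators tested Nr1h3 alone passed. Of the 20 nearest tested genes around Pparg on chromosome 6, 10 on each side, 1 passed. This was Tmcc1, chosen after its value was seen, at 4.74 ± 0.527 FPKM in KO cells and 8.46 ± 1.27 FPKM in control cells (-0.72 ± 0.11, adjusted p = 0.0122), a call that was lost without control 2 (adjusted p 0.0589).

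The 15 genes with the largest falls in KO cells encode a hydrolase, a signalling adaptor, sorting and transport proteins, a nuclear receptor, lipid enzymes and secreted proteins. Cmbl, a hydrolase of the dienelactone hydrolase family, was at 1.14, 1.33, 0.937 and 1.42 FPKM in KO libraries, against 11.8, 13.5, 12.7 and 13.9 FPKM in control libraries. All KO libraries lay below all control libraries by a wide margin, and the difference was -2.67 ± 0.092, adjusted p = 1.33e-06. Sh2d1b1, the SLAM receptor adaptor EAT-2, was at 0.375, 0.559, 0.328 and 0.565 FPKM in KO libraries, against 6.00, 7.25, 6.61 and 5.36 FPKM in control libraries. It was under 1 FPKM in every KO library, with a difference of -2.32 ± 0.10, adjusted p = 5.35e-06. It entered the test through control libraries alone. Reads could be split with its paralog Sh2d1b2, which was too low to be tested. Sh2d1b2 was at 0.0709, 0, 0 and 0 FPKM in KO libraries, against 0.453, 0.641, 0.218 and 0.265 FPKM in control libraries. Sort1, the sorting receptor sortilin, which carries proteins from the Golgi towards lysosomes, was at 3.71, 5.44, 6.14 and 4.55 FPKM in KO libraries, against 22.9, 21.3, 26.2 and 25.8 FPKM in control libraries (-2.08 ± 0.13, adjusted p = 7.54e-05). Slco2b1, an organic anion transporter, was at 0.0610, 0.0665, 0.0165 and 0.0264 FPKM in KO libraries, against 1.26, 1.89, 2.82 and 2.36 FPKM in control libraries. Its KO values lay close to 0, and its difference of -1.54 ± 0.15, adjusted p = 0.000917 is understated by the scale. Like Sh2d1b1, Slco2b1 entered the test through control libraries alone.

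F7, the gene of coagulation factor VII, was at 30.7, 28.2, 21.8 and 35.4 FPKM in KO libraries, against 83.4, 82.8, 84.9 and 85.5 FPKM in control libraries. The 4 control values lay within a narrow band and the KO values were spread more widely below it (-1.52 ± 0.13, adjusted p = 0.000421). Bcap31, a chaperone of the endoplasmic reticulum membrane, was at 68.5, 64.6, 46.7 and 68.6 FPKM in KO libraries, against 197, 204, 142 and 193 FPKM in control libraries (-1.56 ± 0.16, adjusted p = 0.00106). Control 3 was the lowest control library for this gene and still lay above every KO library. Trf, the iron carrier transferrin, averaged 49.8 ± 10.3 FPKM in KO cells and 127 ± 22.3 FPKM in control cells (-1.33 ± 0.16, adjusted p = 0.00326), and Atp6v0a1, a membrane subunit of the proton pump that acidifies lysosomes, averaged 30.4 ± 9.01 FPKM in KO cells and 75.9 ± 14.1 FPKM in control cells (-1.32 ± 0.20, adjusted p = 0.0103). Unc119, a carrier of lipid-modified proteins, averaged 3.59 ± 0.787 FPKM in KO cells and 11.2 ± 0.580 FPKM in control cells (-1.43 ± 0.12, adjusted p = 0.000476), and Rab19, a small GTPase of vesicle traffic, averaged 1.23 ± 0.346 FPKM in KO cells and 4.35 ± 0.638 FPKM in control cells (-1.26 ± 0.13, adjusted p = 0.00112). Kctd12b differed by -1.54 ± 0.15, adjusted p = 0.000917 and Vsig8 by -1.46 ± 0.12, adjusted p = 0.000379. Of the 15, Mgll alone lost its call when 1 library was left out.

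**Figure D2:**
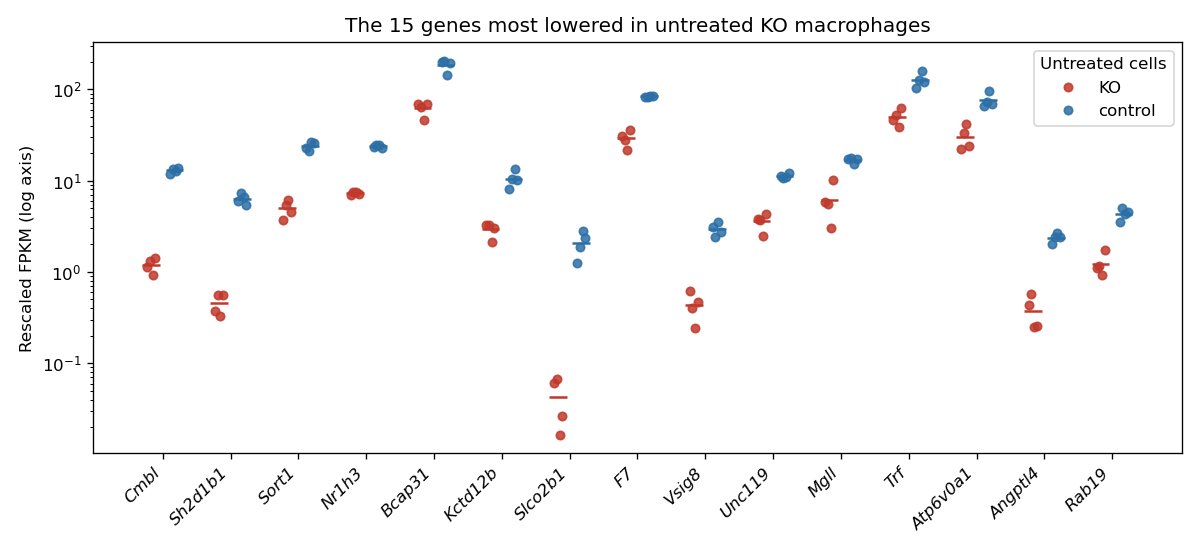
Rescaled FPKM on a log axis for the 15 genes with the largest falls, ordered by their log2 difference; each point is 1 library, KO in red to the left of control in blue, and lines are group means. Genes were taken for this plot only where the groups do not overlap, and Slco2b1 has the lowest KO values, 0.0165 to 0.0665 FPKM.

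Several genes known as targets of PPARγ fell in KO cells. Of 25 listed, 16 were tested, 7 fell, none rose (0) and 13 had a negative difference, with a median of -0.56 beside 0.00 for all genes tested. Of all 9688 genes tested 1.3% fell and 4709 had a negative difference. Cd36, the fatty acid and oxidised lipoprotein receptor, was at 379, 446, 398 and 432 FPKM in KO libraries, against 835, 1049.5, 933 and 933 FPKM in control libraries. It was the most abundant of the 7, and each KO library held less than any control library (-1.18 ± 0.11, adjusted p = 0.000682). In a fit over all 31 libraries it did not pass (adjusted p = 0.731). Plin2, which coats lipid droplets, averaged 241 ± 26.6 FPKM in KO cells and 509.7 ± 45.4 FPKM in control cells (-1.08 ± 0.11, adjusted p = 0.00131), and Fabp4, a cytosolic carrier of fatty acids, averaged 196 ± 34.3 FPKM in KO cells and 413 ± 34.6 FPKM in control cells (-1.08 ± 0.14, adjusted p = 0.00337). Angptl4, a secreted inhibitor of lipoprotein lipase, was at 0.431, 0.574, 0.247 and 0.258 FPKM in KO libraries, against 2.01, 2.42, 2.66 and 2.44 FPKM in control libraries (-1.30 ± 0.11, adjusted p = 0.000379). It was under 1 FPKM in all KO libraries and entered the test through control libraries alone. Ucp2, a mitochondrial carrier chosen after its value was seen, differed by -0.60 ± 0.11, adjusted p = 0.0267. Its call was lost without KO 1, KO 2, control 2, control 3 or control 4 (adjusted p 0.0632 to 0.111). Lpl, the lipoprotein lipase gene, was at 166, 247, 282 and 229.8 FPKM in KO libraries, against 273, 334, 427 and 361 FPKM in control libraries, which did not pass (-0.60 ± 0.18, adjusted p = 0.184). The count of targets that fell was 5 to 9 when 1 library was left out, 8 without KO 2 and KO 3, and 9 with the replicate block. In the fit over all 31 libraries 19 targets were tested, of which 9 fell and 2 rose. Calls were also lost on the values as deposited for Ucp2 (adjusted p = 0.238) and with no filter on low values for Ucp2 (adjusted p = 0.0563).

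Lists of lipid droplet and fatty acid uptake genes share several of these members. Of 10 droplet and lipolysis genes tested, 3 fell and none rose (0), with a median of -0.06. Mgll, which releases the last fatty acid of a glyceride, was at 5.86, 5.59, 3.06 and 10.1 FPKM in KO libraries, against 17.4, 17.9, 15.4 and 17.4 FPKM in control libraries (-1.42 ± 0.24, adjusted p = 0.0198). KO 4 stood nearest to the control libraries, and the call was lost without KO 1, KO 2, control 2, control 3 or control 4 (adjusted p 0.0539 to 0.0807). Pnpla2, the lipase of the first step of triglyceride breakdown, averaged 12.3 ± 1.55 FPKM in KO cells and 20.8 ± 2.46 FPKM in control cells (-0.72 ± 0.11, adjusted p = 0.0126), and lost its call without control 2 or control 4 (adjusted p 0.0531 to 0.0597). Of 16 genes of fatty acid uptake tested, Sort1, Angptl4, Cd36, Fabp4 and Acsl3 fell and none rose (0), with a median of -0.19. Acsl3, which activates fatty acids and was chosen after its value was seen, differed by -0.46 ± 0.087, adjusted p = 0.0287. Its call was lost without KO 2, KO 4, control 1, control 2, control 3 or control 4 (adjusted p 0.0519 to 0.115), and its exons overlap those of Utp14b on the same strand. Of the 16, 6 fell with the replicate block, and of the 10 droplet and lipolysis genes 1 fell without control 2 or control 4. In the fit over all 31 libraries 17 uptake genes were tested, of which 6 fell and 1 rose. Other settings ended calls as well, on the values as deposited for Acsl3 (adjusted p = 0.242) and with no filter on low values for Mgll and Acsl3 (adjusted p 0.0585 to 0.0617). Further calls were lost without KO 2 and KO 3 for Acsl3 (adjusted p = 0.051).

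The promoters of 3 of these genes are shown because each holds a near match to the response element of PPARγ and RXR within the window searched. The sequences are the 250 bases before the first listed start of each gene in RefSeq (build GRCm38.p6), read 5′ to 3′ on the gene's strand, and capitals mark the match. They lie at chr8:13025784-13026033 on the plus strand for F7, chr5:17835897-17836146 on the minus strand for Cd36 and chr4:86670060-86670309 on the minus strand for Plin2.
F7: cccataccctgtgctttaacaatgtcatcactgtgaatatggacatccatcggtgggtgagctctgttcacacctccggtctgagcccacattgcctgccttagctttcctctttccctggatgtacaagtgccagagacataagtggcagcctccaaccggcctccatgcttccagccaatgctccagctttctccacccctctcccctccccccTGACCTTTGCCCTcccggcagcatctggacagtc
Cd36: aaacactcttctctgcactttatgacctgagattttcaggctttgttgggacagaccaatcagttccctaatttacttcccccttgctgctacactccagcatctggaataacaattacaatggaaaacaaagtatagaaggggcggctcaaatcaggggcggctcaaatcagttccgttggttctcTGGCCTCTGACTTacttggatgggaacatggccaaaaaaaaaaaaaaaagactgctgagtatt
Plin2: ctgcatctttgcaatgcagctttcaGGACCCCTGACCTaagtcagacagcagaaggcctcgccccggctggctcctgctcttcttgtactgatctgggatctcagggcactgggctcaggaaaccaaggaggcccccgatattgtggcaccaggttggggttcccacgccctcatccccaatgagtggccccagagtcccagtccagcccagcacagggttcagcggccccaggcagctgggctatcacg
The letters searched were AGGTCANAGGTCA on both strands, with up to 2 mismatches over the 2 half-sites of 6 bases, in windows of 250 bases before to 50 after each start, 1 start per gene. The match had 1 mismatch in F7, where it began 34 bases before the start, and 2 mismatches in Cd36 (63 bases before) and in Plin2 (225 bases before), and all 3 lie on the strand opposite to the gene. Of the 126 genes that fell, 93 had a promoter in the table and 6 of these (6.45%) held such a match. Of the 50 that rose, 41 had a promoter and none (0) held one. The share was 2.94% of the 7818 tested genes with a promoter and 3.81% of all 27025 promoters. Only 73.8% of the genes that fell had a promoter, so a comparison of the sets is void. A match of letters is not a binding site, and binding was not measured here.

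A pair of neighbouring genes of fatty acid oxidation fell in KO cells. Hadhb, the beta subunit of the mitochondrial trifunctional protein, which carries out the last steps of long-chain β-oxidation, was at 7.77, 7.16, 6.79 and 8.23 FPKM in KO libraries, against 17.4, 17.4, 19.8 and 18.2 FPKM in control libraries. Hadha, its alpha subunit, was at 15.4, 14.8, 16.3 and 15.9 FPKM in KO libraries, against 27.3, 27.8, 24.5 and 29.0 FPKM in control libraries. Both were lower in every KO library than in any control library, with differences of -1.18 ± 0.080, adjusted p = 0.000128 for Hadhb and -0.76 ± 0.075, adjusted p = 0.000976 for Hadha. Ech1, an isomerase of unsaturated fatty acids, averaged 29.2 ± 3.94 FPKM in KO cells and 46.0 ± 3.21 FPKM in control cells (-0.65 ± 0.11, adjusted p = 0.0173) and lost its call without KO 2, control 2 or control 4 (adjusted p 0.0625 to 0.0762). The 3 were the members that passed among 22 tested genes of mitochondrial fatty acid oxidation, none rose (0), and 21 of the 22 had a negative difference, with a median of -0.17. Over all genes tested 4709 of 9688 had a negative difference and 1.3% fell. Cpt1a, which lets long-chain fatty acids into mitochondria, was named after its value was seen. It averaged 11.8 ± 2.01 FPKM in KO cells and 17.2 ± 1.39 FPKM in control cells and did not pass (-0.52 ± 0.12, adjusted p = 0.0654). Of the 22, 5 fell with the replicate block and 2 to 6 with 1 library left out, the 6 without KO 3 and the 2 without KO 2, control 2 or control 4. Some calls ended too on the values as deposited for Ech1 (adjusted p = 0.154).

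Hadha and Hadhb stand head to head, and the shared stretch between their starts is shown because both genes moved together. The sequence is the 250 bases before the start of Hadhb in RefSeq (GRCm38.p6, chr5:30155003-30155252, plus strand), and capitals mark the 228 bases that also belong to the window of Hadha, which lies on the minus strand.
Hadhb: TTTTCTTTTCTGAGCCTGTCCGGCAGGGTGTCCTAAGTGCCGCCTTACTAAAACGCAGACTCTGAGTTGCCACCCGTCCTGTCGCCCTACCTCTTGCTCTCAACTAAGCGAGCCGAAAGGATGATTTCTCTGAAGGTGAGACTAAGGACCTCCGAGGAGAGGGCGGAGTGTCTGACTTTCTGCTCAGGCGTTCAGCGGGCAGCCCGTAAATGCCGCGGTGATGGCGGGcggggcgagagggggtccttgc
The starts lie 273 bases apart. The best match to the motif above in either window had 4 mismatches, beyond the limit of 2.

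Other parts of energy metabolism held few changes. Of 20 peroxisomal genes tested, Abcd2 and Ech1 fell and none rose (0), with a median of -0.15. Abcd2, a peroxisomal importer of very long-chain fatty acids, was at 2.50, 3.10, 3.17 and 3.27 FPKM in KO libraries, against 5.76, 7.12, 9.04 and 7.09 FPKM in control libraries (-1.03 ± 0.12, adjusted p = 0.00279). Its groups lay well apart. None (0) of 21 genes of the tricarboxylic acid cycle and none (0) of 26 of oxidative phosphorylation passed, with medians of -0.07 and -0.09 that changed sign without KO 3 (0.01 and 0.05). The members with the smallest p were Idh3g (-0.19 ± 0.090, adjusted p = 0.442) and Sdha (-0.12 ± 0.072, adjusted p = 0.599) in the cycle and Ndufs3 (-0.15 ± 0.085, adjusted p = 0.579) and Ndufv1 (-0.14 ± 0.084, adjusted p = 0.594) in the respiratory chain. In glycolysis none (0) of 16 passed. Slc16a3, the lactate exporter, differed by 0.52 ± 0.11, adjusted p = 0.0567 and Pfkp by 0.37 ± 0.10, adjusted p = 0.133. Pairing by the replicate block left 2 glycolysis genes higher and 1 lower. Without KO 3 it was 2 glycolysis genes that rose, and without control 1 it was 1. Among peroxisomal genes 1 fell on the values as deposited and without KO 2, control 2 or control 4.

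The lipid synthesis genes that passed were lower in KO cells. Of 17 genes of fatty acid and triglyceride synthesis tested, 2 fell and none rose (0), with a median of -0.14. Dgat1, which makes triglyceride from diglyceride, was at 4.58, 4.65, 4.65 and 5.16 FPKM in KO libraries, against 8.32, 7.89, 7.81 and 7.84 FPKM in control libraries (-0.64 ± 0.068, adjusted p = 0.00131). Awat1, a wax synthase, was at 0.0203, 0.0522, 0.0259 and 0 FPKM in KO libraries, against 1.29, 1.21, 0.958 and 1.09 FPKM in control libraries (-1.06 ± 0.088, adjusted p = 0.000379). It was low in both groups and close to 0 in KO cells, and it reached 1 FPKM in control libraries alone. In cholesterol synthesis 2 of 24 tested genes fell and none rose (0), and 23 of the 24 had a negative difference, with a median of -0.25. A negative difference was found for 4709 of all 9688 genes tested. Hmgcs1, an early enzyme of the pathway, averaged 15.8 ± 1.34 FPKM in KO cells and 21.9 ± 1.00 FPKM in control cells (-0.44 ± 0.079, adjusted p = 0.0226), and Dhcr7, its last reductase, averaged 4.57 ± 0.308 FPKM in KO cells and 6.43 ± 0.235 FPKM in control cells (-0.42 ± 0.071, adjusted p = 0.0198). The call of Hmgcs1 was lost without KO 1, KO 4, control 2, control 3 or control 4 (adjusted p 0.0592 to 0.089), and that of Dhcr7 without KO 2, control 2, control 3 or control 4 (adjusted p 0.0686 to 0.0772). In the fit with the replicate block 4 cholesterol genes and 3 fatty acid and triglyceride genes fell. Without KO 3 it was 4 in each list, and in a fit over all 31 libraries 9 cholesterol genes fell. Without control 2 or control 4 no cholesterol gene (0) and 1 triglyceride gene fell, without control 3 no cholesterol gene (0) fell, and without control 1 it was 1 triglyceride gene. Leaving out KO 2 or KO 4 left 1 cholesterol gene. On the values as deposited none (0) of the cholesterol genes passed, and Dgat1 missed the threshold as well (adjusted p = 0.0524).

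LXRα fell in KO cells, and its known targets moved in both directions. Nr1h3, the gene of LXRα, was at 6.96, 7.45, 7.52 and 7.18 FPKM in KO libraries, against 23.3, 24.6, 24.6 and 22.8 FPKM in control libraries. The spread within each group was small beside the gap, and the difference was -1.59 ± 0.065, adjusted p = 3.66e-06. Of 14 LXR targets tested, Nr1h3 included, 3 fell and 1 rose, with a median of -0.23. Abcg1, which exports cholesterol to lipoproteins, was at 27.7, 29.3, 27.8 and 25.9 FPKM in KO libraries, against 54.3, 48.6, 51.0 and 51.0 FPKM in control libraries (-0.87 ± 0.072, adjusted p = 0.000379). Abca1, the other main cholesterol exporter, named after its value was seen, was at 11.4, 14.8, 29.6 and 14.0 FPKM in KO libraries, against 12.6, 9.14, 19.1 and 13.5 FPKM in control libraries. Its groups overlapped, and it did not pass (0.29 ± 0.28, adjusted p = 0.816). Arl4c, a small GTPase known as an LXR target, was higher in KO cells, at 14.0, 12.2, 12.2 and 14.7 FPKM in KO libraries, against 7.12, 5.69, 6.80 and 7.04 FPKM in control libraries (0.89 ± 0.094, adjusted p = 0.00131), and was not called on the values as deposited (adjusted p = 0.427). Lpcat3, which puts polyunsaturated fatty acids into phospholipids, averaged 6.69 ± 0.680 FPKM in KO cells and 9.75 ± 0.943 FPKM in control cells (-0.48 ± 0.093, adjusted p = 0.0322). Its call was lost without KO 2, KO 4, control 1, control 2, control 3 or control 4 (adjusted p 0.052 to 0.124), and its exons overlap those of Emg1 on the other strand. Of the 14, 5 fell and 1 rose with the replicate block, and 6 fell and 2 rose without KO 3. Calls were also lost on the values as deposited for Lpcat3 (adjusted p = 0.268) and with no filter on low values for Lpcat3 (adjusted p = 0.0585). Other settings ended calls as well, without KO 2 and KO 3 for Lpcat3 (adjusted p = 0.0722).

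Among 23 genes of phospholipid and sphingolipid metabolism, 3 fell and 1 rose, with a median of 0.01. Sgms2, a sphingomyelin synthase, averaged 4.38 ± 0.786 FPKM in KO cells and 6.74 ± 0.426 FPKM in control cells (-0.53 ± 0.11, adjusted p = 0.0368), and Pla2g15, a lysosomal phospholipase, averaged 34.1 ± 4.25 FPKM in KO cells and 48.0 ± 3.62 FPKM in control cells (-0.49 ± 0.10, adjusted p = 0.0473). Both calls were lost without any one library other than KO 3, with adjusted p 0.0725 to 0.14 for Sgms2 and 0.0664 to 0.162 for Pla2g15. Pld4, a nucleic acid exonuclease of endosomes and lysosomes that carries a phospholipase name, was higher in KO cells, at 32.0, 23.4, 23.1 and 29.0 FPKM in KO libraries, against 14.6, 11.0, 16.4 and 14.5 FPKM in control libraries (0.88 ± 0.14, adjusted p = 0.0142), and lost its call without control 4 (adjusted p 0.0596). Glul, glutamine synthetase, fell to 25.9 ± 1.69 FPKM in KO cells, against 38.0 ± 2.28 FPKM in control cells (-0.54 ± 0.078, adjusted p = 0.00882), as the 1 of 18 glutamine and glutamate genes that passed; it lost its call without control 4 (adjusted p 0.0545). Atf5, a stress-response transcription factor, rose in KO cells as the 1 of 16 genes of amino acid starvation and the unfolded protein response (0.58 ± 0.11, adjusted p = 0.0267). Its call was lost without KO 2, KO 4, control 2, control 3 or control 4 (adjusted p 0.0529 to 0.0959), with the replicate block (adjusted p = 0.0509) and on the values as deposited (adjusted p = 0.771), and its exons overlap those of Nup62 on the other strand. Among the phospholipid and sphingolipid genes 1 fell without KO 1 and none (0) fell without KO 2, KO 4 or any 1 control library or on the values as deposited, while 3 rose without KO 3. On the values as deposited 1 gene of the amino acid starvation list fell, as it did without KO 3. Further calls were lost on the values as deposited for Pld4, Sgms2, Pla2g15 and Glul (adjusted p 0.133 to 0.671) and with no filter on low values for Sgms2, Pla2g15 and Atf5 (adjusted p 0.0655 to 0.0789). Some calls ended too with upper-quartile scaling for Pla2g15 (adjusted p = 0.0572) and without the trend for Pla2g15 (adjusted p = 0.05). Calls were also lost without KO 2 and KO 3 for Atf5 (adjusted p = 0.0583).

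**Figure D3:**
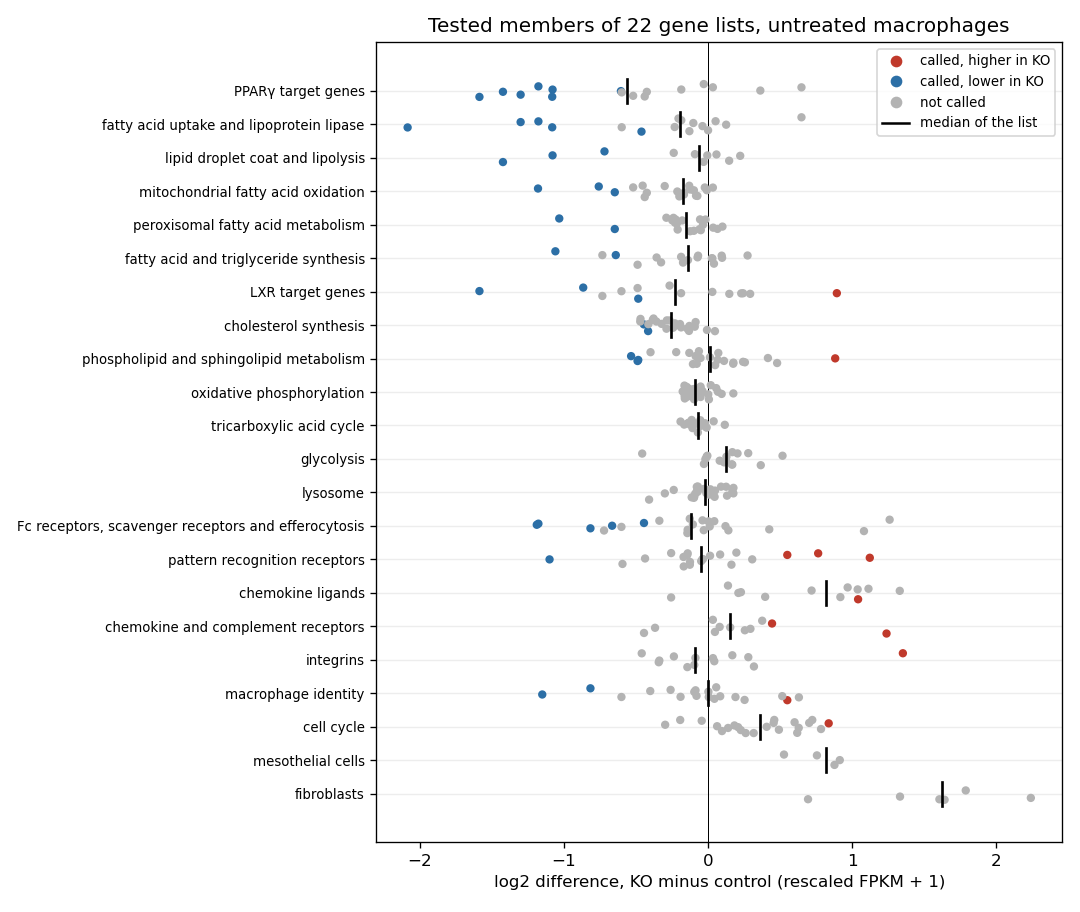
Each point is a tested gene of 1 of 22 gene lists, placed by its log2 difference, KO minus control; points in red and blue passed the test as higher and lower in KO cells, grey points did not, and black bars are list medians. PPARγ targets have a median of -0.56 and cholesterol synthesis of -0.25, while chemokine ligands have 0.82 and fibroblast markers 1.62 with 1 and 0 called members.

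The Fc receptor genes that passed were lower in KO cells. Of 22 Fc receptors, scavenger receptors and efferocytosis genes tested, 5 fell and none rose (0), with a median of -0.12. Fcgr4, an activating receptor for antibody complexes, was at 30.6, 25.1, 15.5 and 28.7 FPKM in KO libraries, against 63.1, 55.4, 49.9 and 58.0 FPKM in control libraries (-1.19 ± 0.19, adjusted p = 0.0136). KO 3 was the lowest library of all. Fcgr3 averaged 152 ± 17.4 FPKM in KO cells and 241 ± 25.8 FPKM in control cells (-0.66 ± 0.11, adjusted p = 0.0198) and Fcgr1 5.44 ± 0.688 FPKM in KO cells and 10.4 ± 2.43 FPKM in control cells (-0.82 ± 0.14, adjusted p = 0.0198). Scarb2, a lysosomal membrane protein, differed by -0.44 ± 0.075, adjusted p = 0.0194, and Cd36 was the fifth. The call of Fcgr4 was lost without control 2 or control 4 (adjusted p 0.0589 to 0.0601), that of Fcgr3 without KO 1, control 2, control 3 or control 4 (adjusted p 0.0632 to 0.0836), that of Fcgr1 without KO 2, KO 4, control 2 or control 4 (adjusted p 0.0529 to 0.0663) and that of Scarb2 without KO 2, KO 4, control 2 or control 4 (adjusted p 0.0502 to 0.0836). Fc receptor genes resemble each other in sequence, so reads could be split between them. Siglec1, a sialic acid receptor of macrophages, was at 1.80, 3.05, 3.90 and 1.90 FPKM in KO libraries, against 6.09, 6.07, 9.72 and 6.27 FPKM in control libraries (-1.15 ± 0.20, adjusted p = 0.022), and its call was lost without KO 1, KO 2, KO 4, control 2, control 3 or control 4 (adjusted p 0.0547 to 0.0703). Of the 22, 7 fell and 1 rose with the replicate block and without KO 3, while 3 fell without KO 2 or KO 4 and 1 fell without control 2 or control 4. Other settings ended calls as well, on the values as deposited for Scarb2 and Fcgr3 (adjusted p 0.229 to 0.639) and with no filter on low values for Fcgr1 and Siglec1 (adjusted p 0.056 to 0.0679). Further calls were lost without KO 2 and KO 3 for Fcgr1 (adjusted p = 0.06).

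Among 21 pattern recognition receptors tested, 3 rose and 1 fell, with a median of -0.05. Cd14, a co-receptor for bacterial lipopolysaccharide, was at 31.1, 29.4, 29.7 and 30.9 FPKM in KO libraries, against 21.3, 20.0, 20.9 and 19.3 FPKM in control libraries. The values were tight in both groups (0.55 ± 0.067, adjusted p = 0.00286), and the difference did not pass on the values as deposited (adjusted p = 0.771). Clec4n, the fungal receptor Dectin-2, was at 8.76, 7.02, 4.39 and 10.2 FPKM in KO libraries, against 2.95, 2.39, 2.60 and 3.36 FPKM in control libraries (1.12 ± 0.20, adjusted p = 0.0234), and Clec4e, the mycobacterial glycolipid receptor Mincle, averaged 6.58 ± 0.694 FPKM in KO cells and 3.49 ± 0.742 FPKM in control cells (0.76 ± 0.12, adjusted p = 0.0136). Tlr8, an endosomal RNA sensor, fell to 14.7 ± 3.28 FPKM in KO cells, against 32.7 ± 8.22 FPKM in control cells (-1.10 ± 0.18, adjusted p = 0.0188). The call of Clec4n was lost without KO 1, KO 2, control 2, control 3 or control 4 (adjusted p 0.0646 to 0.0966), that of Clec4e without KO 2, control 2 or control 4 (adjusted p 0.053 to 0.0663) and that of Tlr8 without KO 1, KO 2, control 2 or control 4 (adjusted p 0.0511 to 0.0667). Of the 21, 1 rose without KO 2, control 2 or control 4, and 1 rose and 2 fell on the values as deposited. In the SLAM family and its adaptors Sh2d1b1 was the 1 of 7 that passed, and 2 fell with the replicate block and without KO 1 or KO 3. Some calls ended too on the values as deposited for Clec4e (adjusted p = 0.598) and with no filter on low values for Clec4n and Tlr8 (adjusted p 0.055 to 0.0732).

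Single members of the integrin and chemokine lists rose in KO cells. Itgb7, integrin β7, which pairs with α4 or αE chains on leukocytes, was at 80.5, 61.4, 51.7 and 53.7 FPKM in KO libraries, against 30.1, 22.5, 19.4 and 22.1 FPKM in control libraries. KO libraries lay well above control libraries (1.35 ± 0.16, adjusted p = 0.00286), and none (0) of the other 12 integrins tested passed. Cxcl16, a chemokine that is also a scavenger receptor for oxidised lipoprotein, was at 23.7, 26.2, 25.0 and 26.9 FPKM in KO libraries, against 12.4, 11.4, 12.7 and 11.0 FPKM in control libraries. Both groups were tight (1.04 ± 0.077, adjusted p = 0.000216), although the difference did not pass on the values as deposited (adjusted p = 0.225). It was the 1 of 12 chemokine ligands tested that passed, 11 of the 12 had a positive difference and their median was 0.82. A positive difference was found for 4979 of all 9688 genes tested. Ccl2, a monocyte attractant named after its value was seen, shows how wide the spread was, with 10.9, 5.69, 3.95 and 2.26 FPKM in KO libraries, against 7.26, 1.05, 0.144 and 0.655 FPKM in control libraries (1.33 ± 0.59, adjusted p = 0.402). Of the 12, 5 rose with the replicate block, and 4 of 11 rose on the values as deposited. Cxcr4, the receptor of CXCL12, averaged 56.7 ± 5.03 FPKM in KO cells and 41.3 ± 3.11 FPKM in control cells (0.44 ± 0.090, adjusted p = 0.0424), a call lost without KO 1, KO 2, KO 4, control 1, control 2, control 3 or control 4 (adjusted p 0.0755 to 0.168). Calls were also lost on the values as deposited for Cxcr4 (adjusted p = 0.78) and with no filter on low values for Cxcr4 (adjusted p = 0.058).

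S100a4, a calcium-binding protein of motile cells, was the most abundant of the 14 genes with the largest rises that are plotted, at 272, 232, 149 and 200.4 FPKM in KO libraries, against 128, 81.9, 95.5 and 90.3 FPKM in control libraries (1.09 ± 0.19, adjusted p = 0.0233). Cav1, the coat protein of caveolae, was at 7.69, 4.27, 6.63 and 6.83 FPKM in KO libraries, against 2.63, 1.55, 1.01 and 2.56 FPKM in control libraries (1.34 ± 0.22, adjusted p = 0.0144). Tm4sf1, a membrane protein of endothelial and other adherent cells, was at 2.86, 3.18, 4.01 and 1.76 FPKM in KO libraries, against 1.29, 0.915, 0.336 and 0.907 FPKM in control libraries (1.08 ± 0.20, adjusted p = 0.0298). The values of these genes do not overlap between the groups, as the rule that chose them required. Src, a tyrosine kinase, averaged 9.96 ± 2.52 FPKM in KO cells and 5.06 ± 1.05 FPKM in control cells (0.84 ± 0.18, adjusted p = 0.0473), Ampd3, an AMP deaminase, averaged 11.1 ± 3.84 FPKM in KO cells and 5.11 ± 0.650 FPKM in control cells (0.95 ± 0.19, adjusted p = 0.0415), and Phlpp1, a phosphatase that acts on the kinase Akt, averaged 6.08 ± 1.77 FPKM in KO cells and 2.84 ± 0.450 FPKM in control cells (0.86 ± 0.17, adjusted p = 0.0381). The call of S100a4 was lost without KO 1, KO 2, KO 4, control 2, control 3 or control 4 (adjusted p 0.0523 to 0.0969), that of Cav1 without control 2 (adjusted p 0.0667) and that of Tm4sf1 without KO 1, KO 2, control 2, control 3 or control 4 (adjusted p 0.0716 to 0.106). Src lost its call without KO 1, KO 2, KO 4, control 2, control 3 or control 4 (adjusted p 0.0759 to 0.172), Ampd3 without KO 2, KO 4, control 1, control 2, control 3 or control 4 (adjusted p 0.0727 to 0.154) and Phlpp1 without KO 2, KO 4, control 1, control 2, control 3 or control 4 (adjusted p 0.0559 to 0.144). Other settings ended calls as well, on the values as deposited for S100a4, Ampd3, Phlpp1 and Src (adjusted p 0.242 to 0.47) and with no filter on low values for Cav1, S100a4, Tm4sf1, Ampd3, Phlpp1 and Src (adjusted p 0.0505 to 0.108). Further calls were lost without KO 2 and KO 3 for Tm4sf1 (adjusted p = 0.0856).

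A pair of histone genes and a cyclin rose in KO cells. Hist1h3d was at 3.70, 4.19, 4.02 and 3.56 FPKM in KO libraries, against 2.08, 1.12, 1.04 and 0.978 FPKM in control libraries (1.10 ± 0.14, adjusted p = 0.00365), and Hist1h3i averaged 5.26 ± 0.858 FPKM in KO cells and 2.29 ± 0.984 FPKM in control cells (0.96 ± 0.19, adjusted p = 0.0368). Both encode histone H3, and the copies are near identical, so the authors' counting could split or misplace their reads. Ccna2, cyclin A2, was at 2.56, 1.89, 2.11 and 1.18 FPKM in KO libraries, against 1.05, 0.601, 0.331 and 0.564 FPKM in control libraries (0.84 ± 0.17, adjusted p = 0.0447). It is low in both groups, and its exons overlap those of Exosc9 on the other strand. Ccna2 was the 1 of 22 cell cycle genes tested that passed, 19 of the 22 had a positive difference and their median was 0.36, but their summed level overlapped between the groups, at 96.1 to 117 FPKM in KO libraries and 89.8 to 101 FPKM in control libraries. Over all genes tested 4979 of 9688 had a positive difference. The call of Ccna2 was lost without KO 1, KO 2, control 2, control 3 or control 4 (adjusted p 0.119 to 0.148), and that of Hist1h3i without KO 1, KO 2, KO 4, control 2, control 3 or control 4 (adjusted p 0.0502 to 0.128) and in a fit over all 31 libraries (adjusted p = 0.0861). Under the replicate block 3 cell cycle genes rose, as 3 did without control 1, 4 without KO 4 and 2 on the values as deposited. Without KO 1, KO 2, control 2, control 3 or control 4 none (0) rose. Some calls ended too on the values as deposited for Hist1h3i (adjusted p = 0.0534) and with no filter on low values for Hist1h3i and Ccna2 (adjusted p = 0.0988). Calls were also lost with a pseudocount of 0.1 for Ccna2 (adjusted p = 0.0534) and without KO 2 and KO 3 for Hist1h3i and Ccna2 (adjusted p 0.107 to 0.108).

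**Figure D4:**
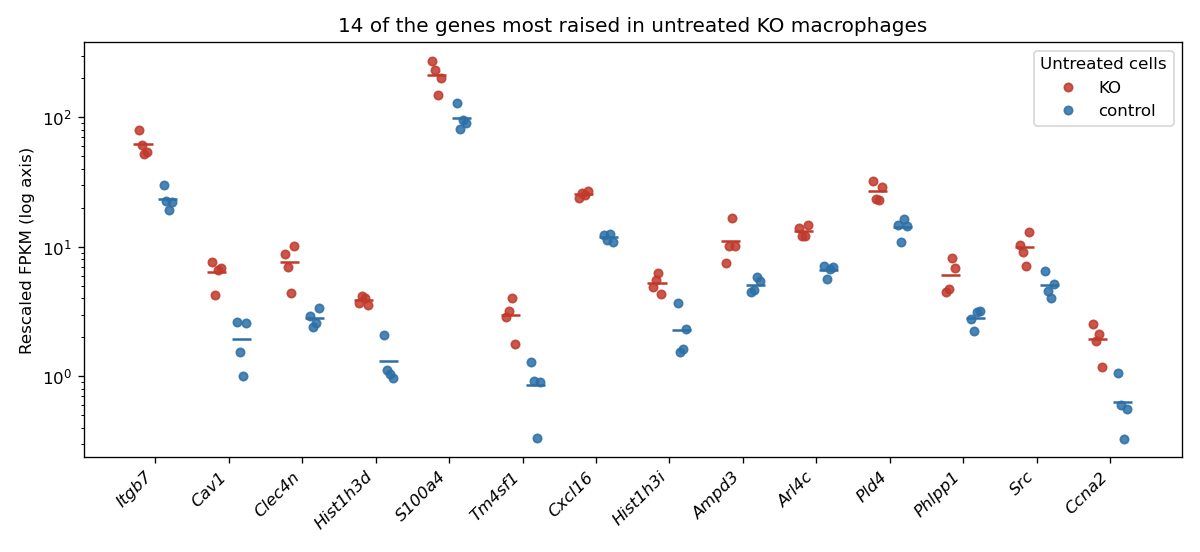
Rescaled FPKM on a log axis for 14 of the genes with the largest rises, ordered by their log2 difference; each point is 1 library, KO in red to the left of control in blue, and lines are group means. Absence of overlap was required of these genes, and S100a4 has the highest levels, 149 to 272 FPKM in KO libraries and 81.9 to 128 FPKM in control libraries.

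Markers of stromal cells had higher values in most KO libraries, and whether they passed depended on the setting. The 11 fibroblast markers in the table summed to 138 to 216 FPKM in KO libraries and 53.1 to 116 FPKM in control libraries. None (0) of them was at 0 in every library, 2 were under 1 FPKM in all, 6 were tested and none (0) passed, although all 6 had a positive difference with a median of 1.62. Of all 9688 genes tested 4979 had a positive difference. Col1a2, a collagen chain of fibroblasts, was at 21.6, 12.9, 30.3 and 4.54 FPKM in KO libraries, against 11.1, 0.941, 0.401 and 2.32 FPKM in control libraries (2.24 ± 0.70, adjusted p = 0.192). KO 4 lay below control 1, so the groups overlapped. Pdpn, which macrophages also express, was the largest single part of the sum in every one of these libraries. Without it the 5 other tested markers summed to 78.5, 34.9, 78.3 and 16.7 FPKM in KO libraries and 38.0, 5.91, 1.63 and 8.09 FPKM in control libraries. The 13 mesothelial markers summed to 8.22 to 18.0 FPKM in KO libraries and 1.53 to 9.84 FPKM in control libraries; none (0) was at 0 in every library, 5 were under 1 FPKM in all, and of 4 tested none (0) passed, with Upk1b at 0.91 ± 0.23, adjusted p = 0.0964 and Lrrn4 at 0.76 ± 0.26, adjusted p = 0.242. On the values as deposited 5 of the 6 fibroblast markers and 3 of the 4 mesothelial markers passed as higher in KO cells. The replicate block gave 2 calls among fibroblast markers and 0 among mesothelial markers. Without control 1 there was 1 call in each list, and without KO 3 there was 1 among fibroblast markers. Ccl2, Csf1, C3 and Ptgis were, like Col1a2, highest in control 1 among the control libraries. The part of these cells in the values of Cav1, Tm4sf1, S100a4, Cxcl16, Ccna2, Ccl2, Csf1, C3 and Ptgis was not tested. In RNA of whole cultures, fewer cells of a type and less RNA per cell cannot be told apart.

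Other cell types gave little signal. The 13 markers of resident large peritoneal macrophages summed to 22.9 to 29.9 FPKM in KO libraries and 15.2 to 22.3 FPKM in control libraries; 7 were under 1 FPKM everywhere, and of 5 tested none (0) passed, with Gata6 at 0.77 ± 0.20, adjusted p = 0.097 and Cxcl13 at 1.04 ± 0.64, adjusted p = 0.604. Neutrophil markers summed to 24.9 to 35.8 FPKM in KO libraries and 23.7 to 33.0 FPKM in control libraries, S100a9 and Camp were at 0 in all libraries, and none (0) of 3 tested passed; Mmp8 differed by 1.16 ± 0.28, adjusted p = 0.0795 and S100a8 by -0.69 ± 0.23, adjusted p = 0.221. Eosinophil markers summed to 4.13 to 7.77 FPKM in KO libraries and 5.88 to 8.79 FPKM in control libraries, with Epx at 0 in all and Siglecf at -0.22 ± 0.18, adjusted p = 0.762. Endothelial markers summed to 2.74 to 4.96 FPKM in KO libraries and 2.02 to 2.35 FPKM in control libraries, with Tek, Emcn and Cldn5 at 0 in all and Kdr at 0.44 ± 0.15, adjusted p = 0.232. All markers of B cells, mast cells and erythroid cells were under 1 FPKM in all 8 libraries, as were 13 of 14 markers of T and NK cells and 8 of 9 of dendritic cells. The exceptions were Il7r (-0.09 ± 0.15, adjusted p = 0.917) and Batf3 (0.18 ± 0.20, adjusted p = 0.862). Among resident macrophage markers 1 rose with the replicate block, on the values as deposited and without KO 1, KO 4 or control 1, and among neutrophil markers 1 rose on the values as deposited and without KO 3.

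Several lists of inflammatory, activation and other genes held no called member. The lists do not hold all genes of such roles. Cd14, Clec4e, Clec4n and Cxcl16 were called in other lists, and Irg1, called as well, is named under other observations. The lysosomal list did not hold the called genes Atp6v0a1, Scarb2 and Pla2g15. None passed (0) of 9 inflammatory cytokines and enzymes, 16 interferon-stimulated genes, 12 complement genes, 8 genes of MHC class II presentation, 7 costimulatory and coinhibitory ligands, 13 genes of the IL4 response, 11 of prostaglandin and leukotriene synthesis, 11 of osteoclast-like cells and fusion, 15 of the NRF2 and oxidative stress response, 15 immediate early genes and 24 lysosomal genes. Over all 9688 genes 1195 had an unadjusted p under 0.05. The smallest p in these lists belonged to Cd276 (0.50 ± 0.11, adjusted p = 0.0566) and Cd86 (0.66 ± 0.16, adjusted p = 0.0767) among costimulatory ligands, Ier3 (0.71 ± 0.16, adjusted p = 0.0696) and Dusp1 (0.34 ± 0.098, adjusted p = 0.15) among immediate early genes, Hpgds (-0.62 ± 0.15, adjusted p = 0.0782) and Ptgis (1.24 ± 0.36, adjusted p = 0.145) among prostaglandin enzymes, and Srxn1 (0.49 ± 0.12, adjusted p = 0.0856) and Slc7a11 (0.35 ± 0.10, adjusted p = 0.15) among oxidative stress genes. A p above the threshold does not show that these genes did not differ.

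In the remaining lists the leading members were Csf1 (0.92 ± 0.31, adjusted p = 0.23) and Osm (0.56 ± 0.19, adjusted p = 0.233) for inflammatory cytokines, C3 (1.09 ± 0.38, adjusted p = 0.254) and Itgax (-0.46 ± 0.15, adjusted p = 0.214) for complement, and Irf4 (0.40 ± 0.11, adjusted p = 0.137) and Il4ra (0.47 ± 0.14, adjusted p = 0.148) for the IL4 response. They were Bst2 (0.29 ± 0.12, adjusted p = 0.389) and Oasl2 (-0.23 ± 0.10, adjusted p = 0.398) for interferon-stimulated genes, H2-Eb1 (0.42 ± 0.29, adjusted p = 0.654) and H2-DMb1 (-0.15 ± 0.14, adjusted p = 0.803) for MHC class II, Atp6v0d2 (-0.50 ± 0.19, adjusted p = 0.305) and Trem2 (-0.15 ± 0.10, adjusted p = 0.669) for fusion, and Ctsh (-0.41 ± 0.13, adjusted p = 0.216) and Neu1 (0.18 ± 0.083, adjusted p = 0.435) for lysosomes. With the replicate block 3 complement genes, 2 inflammatory genes, 2 costimulatory ligands, 1 oxidative stress gene and 1 immediate early gene rose and 1 prostaglandin gene fell. With 1 library left out these lists held at most 2 calls in a direction, such as 2 costimulatory ligands that rose and 2 prostaglandin genes that fell without KO 3 and 2 immediate early genes that rose without control 1. Of 17 matrix metalloproteases and inhibitors Mmp19 alone passed. It was at 18.3, 14.3, 15.5 and 18.8 FPKM in KO libraries, against 35.4, 36.8, 30.8 and 40.8 FPKM in control libraries (-1.06 ± 0.11, adjusted p = 0.00138), lower in KO cells in every library, and its exons overlap those of Tmem198b on the other strand. With the replicate block 4 members of this list rose and 1 fell. On the values as deposited 3 rose, with 1 library left out 0 to 3 rose, the 3 without KO 3, and in a fit over all 31 libraries 7 rose. The macrophage identity genes had a median of 0.00, with Cd14 higher and Siglec1 and Fcgr1 lower among 19 tested. With the replicate block 3 of these fell, and without KO 2, KO 4, control 2 or control 4 none (0) fell.

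The DMSO libraries, 4 KO and 4 control, gave the same measure in cells that also received no ligand, in separate libraries. The labels give 24 h with DMSO for these cells and no such time for untreated cells. The series names 4 KO and 4 control mice in all, but the labels do not say which library came from which mouse, so these libraries may not be from other animals than the untreated ones. Deviations of untreated and DMSO libraries of the same number correlated at 0.181, 0.212, 0.747 and 0.698 in KO cells. In control cells they correlated at 0.595, 0.0485, 0.594 and 0.278. Signs shared by both comparisons are thus not shown to be independent. In these, 163 of 9868 genes passed (1.65%), 40 higher (0.405%) and 123 lower (1.25%) in KO cells. Of the 126 genes lower in untreated KO cells, 125 were tested with DMSO, all 125 had a negative difference there and 88 (70.4%) passed as lower, with medians of -0.70 untreated and -0.67 with DMSO. Of the 50 higher genes 49 were tested, 48 had a positive difference and 22 (44.9%) passed as higher, with medians of 0.62 untreated and 0.58 with DMSO. None (0) passed in the opposite direction. Cmbl differed by -2.59 ± 0.12 with DMSO (adjusted p = 1.46e-05), Itgb7 by 1.35 ± 0.17 (adjusted p = 0.00343) and Hadhb by -1.08 ± 0.083 (adjusted p = 0.000234). Hist1h3d did not pass with DMSO (0.73 ± 0.24, adjusted p = 0.228).

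The difference between both comparisons was tested itself, as the interaction of genotype and DMSO over 16 libraries. DMSO and time in culture cannot be told apart in it. In limma, without pairing by number, none (0) of 10025 genes passed, and 109 had an unadjusted p under 0.05. With a replicate block for each genotype and number none (0) passed and 519 had an unadjusted p under 0.05. With the replicate block 266 genes passed in the DMSO libraries, 119 higher and 147 lower in KO cells. The gene with opposite signs was the predicted gene model Gm5512, chosen after its value was seen, at 0.724, 1.05, 2.67 and 2.83 FPKM in KO libraries, against 0.438, 0.000568, 0.000418 and 0.000526 FPKM in control libraries (1.28 ± 0.27, adjusted p = 0.0473). With DMSO it differed by -0.70 ± 0.48 (adjusted p = 0.656). In untreated cells it reached 1 FPKM in KO libraries alone and was tested in 5 of the 8 fits that left out 1 library. The untreated call was lost without control 2, control 3 or control 4 (adjusted p 0.144 to 0.166) and with the replicate block (adjusted p = 0.0523). Other settings ended calls as well, with no filter on low values for Gm5512 (adjusted p = 0.108).

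**Figure D5:**
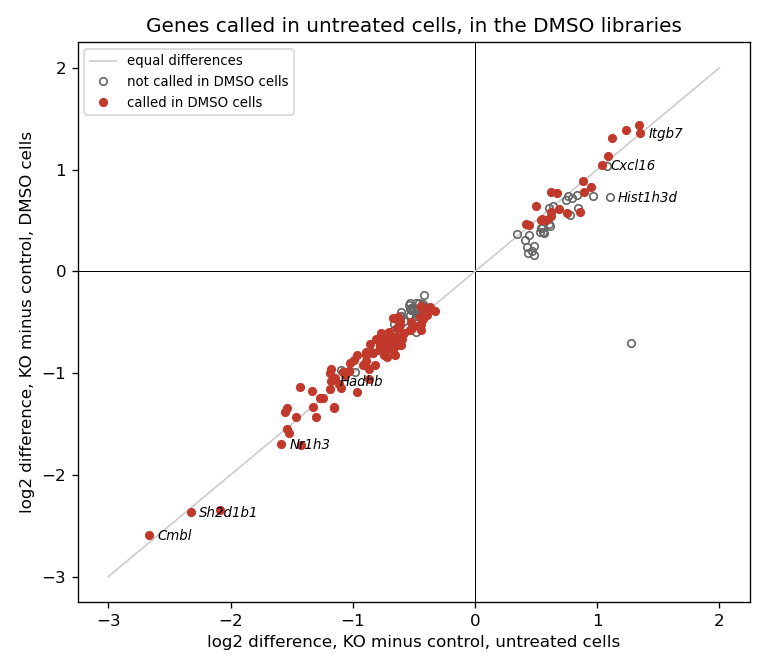
Each point is 1 of the 174 genes called in untreated cells and tested with DMSO, with the log2 difference, KO minus control, in untreated cells on the x axis and in DMSO cells on the y axis; filled points passed in DMSO cells as well, open points did not, and the grey line marks equal differences. All points but that of Gm5512 have the same sign on both axes.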

How the data were processed

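Per the labels, RNA was extracted with Trizol and an RNeasy kit, and a stranded total RNA kit made the libraries. The authors deposited 1 table of FPKM values with 24302 symbols in 31 libraries; per the submitters' processing notes TopHat2, featureCounts, edgeR and the build mm9 were used, with no versions or roles. They do not say whether counting used strand or which total the FPKM rest on. The 25 symbols that are dates (0.137% of the FPKM) were left out. Each library was divided by its median ratio to the gene-wise geometric mean. A linear model of log2(FPKM + 1), with a trend of the prior variance on intensity (limma 3.58.1, R 4.3.3), was fitted to the 4 KO and 4 control untreated libraries, with Benjamini-Hochberg adjustment over all genes tested, two-sided; DMSO libraries were fitted the same way, and the interaction over both. The fit of the untreated comparison was also run on simulated data, and no result of that run is given here. Depth is known only as relative steps, found in the 7 libraries set against control 1. For 65.3% to 72.0% of genes below 0.1 FPKM in both, the ratio to control 1 matched a common step within 0.1%. The step could be multiplied by any ratio of whole numbers from 1 to 5. No interval for counting error was made. No libraries were identical, and correlations between replicates were 0.953 to 0.993. The labels number replicates 1 to 4 without saying what a number marks. Deviations of untreated KO and control libraries of the same number correlated at 0.272, 0.273, 0.426 and 0.101. Of the 8 libraries, 6 correlated best with the library of their own number in the other group. The main fit did not use the number, and the fit with a block by number is given beside calls it ends and list counts it moves. P-values measure the spread between these libraries, which the labels do not tie to single mice.

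Genes named are Pparg, the 15 called genes with the largest rise and the 15 with the largest fall among those without overlap, and for each list up to 4 called members, or 2 if none was called, with the smallest p; predicted models were skipped, and genes outside this rule are named as chosen after their values were seen. A gene that the rule names is not reported here. In 7 tested genes a library was at 0 beside 5 FPKM or more in the same group, and they get no fold; none (0) was called. The members and lists were chosen with earlier results of these data known. RefSeq (GRCm38.p6) served for promoters, and neighbours of Pparg were ordered by their start positions in RefSeq. Exon overlaps were found from the exon positions of another annotation of GRCm38. Alternatives were other scaling, filters, pseudocount, prior, block and library sets.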

Additional observations from a re-analysis of the deposited data

Results flagged for a closer look

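Single libraries stood far from the other 3 of their group in 19 of 256 groups of 4 values looked at (7.4%), by the ratio of the gap to the range (Dixon's test for 4 samples). Chance flags about 1 in 20 groups. Dgat1 was highest in KO 4, at 5.16 FPKM against 4.58 to 4.65 FPKM in the other KO libraries. Glul was highest in KO 4, at 28.4 FPKM against 24.9 to 25.3 FPKM in the other KO libraries. Slc7a11 was lowest in KO 1, at 3.70 FPKM against 4.54 to 4.63 FPKM in the other KO libraries. H2-Eb1 was highest in KO 4, at 32.9 FPKM against 19.5 to 21.3 FPKM in the other KO libraries. Ctsh was lowest in KO 3, at 96.3 FPKM against 139 to 145 FPKM in the other KO libraries. Upk1b was lowest in KO 4, at 1.14 FPKM against 2.26 to 2.41 FPKM in the other KO libraries. Cxcl13 was highest in KO 1, at 9.18 FPKM against 1.17 to 1.65 FPKM in the other KO libraries. Ncoa4 was lowest in KO 3, at 34.6 FPKM against 51.4 to 51.9 FPKM in the other KO libraries. Snx10 was lowest in KO 3, at 23.7 FPKM against 32.5 to 34.1 FPKM in the other KO libraries.

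Bcap31 was lowest in control 3, at 142 FPKM against 193 to 204 FPKM in the other control libraries. Hist1h3d was highest in control 1, at 2.08 FPKM against 0.978 to 1.12 FPKM in the other control libraries. Dgat1 was highest in control 1, at 8.32 FPKM against 7.81 to 7.89 FPKM in the other control libraries. Clec4e was highest in control 3, at 4.59 FPKM against 2.98 to 3.23 FPKM in the other control libraries. Fcgr1 was highest in control 3, at 14.1 FPKM against 8.99 to 9.57 FPKM in the other control libraries. Siglec1 was highest in control 3, at 9.72 FPKM against 6.07 to 6.27 FPKM in the other control libraries. Cxcl13 was highest in control 1, at 4.66 FPKM against 0 to 0.198 FPKM in the other control libraries. S100a8 was lowest in control 4, at 12.8 FPKM against 17.8 to 18.5 FPKM in the other control libraries. Gm5512 was highest in control 1, at 0.438 FPKM against 0.000418 to 0.000568 FPKM in the other control libraries. Ccl2 was highest in control 1, at 7.26 FPKM against 0.144 to 1.05 FPKM in the other control libraries.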

How the results depend on the processing

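Of 82 called genes that are named, 37 lost no call in the fits that left out 1 library and 29 lost none in any alternative run. These counts rest on the fits that tested the gene, and Awat1 was tested in 5 of the 8 fits that left out 1 library. None (0) of the 82 reversed. Calls were lost by 38 of them on the values as deposited, 26 with no filter on low values, 8 without KO 2 and KO 3, 5 in a fit over all 31 libraries, 2 with a pseudocount of 0.1, 2 without the trend, 2 with the replicate block, 1 with upper-quartile scaling and none (0) with a filter of 5 FPKM. The count in untreated cells, 176 (50 higher, 126 lower), was 306 with the replicate block, 443 (186 higher, 257 lower) with all 31 libraries and 332 (132 higher, 200 lower) without KO 2 and KO 3, and 65 to 424 with 1 library left out, where the share of higher genes was 12.3% to 51.6%, against 28.4%. The count with DMSO, 163, was 266 with the replicate block, which pairs libraries by number, and 86 to 266 with 1 library left out. On the values as deposited 53.1% of calls were higher in untreated KO cells and 59.2% with DMSO (113 of 191). Untreated counts with other scaling, filters, pseudocount or no trend were 134 to 179. The difference of the KO effect had 0 calls under every alternative run. Uncalled values that changed sign were H2-DMb1 (0.074 without KO 2 and KO 3), Neu1 (-0.071 as deposited), Il7r (-0.17 to 0.065 with 1 library left out, the highest without KO 3, and 0.099 without KO 2 and KO 3) and Abca1 (-0.051 without KO 2 and KO 3). Why single libraries move the counts was not tested. FPKM without read counts limits what can be said of genes near 0.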

Other observations

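The genes of this section were chosen after their values were seen, and they stand for no group. Ncoa4, the receptor that takes ferritin to autophagy, was at 51.9, 51.4, 34.6 and 51.9 FPKM in KO libraries, against 91.1, 98.7, 96.9 and 89.2 FPKM in control libraries (-0.99 ± 0.13, adjusted p = 0.00511). KO 3 was the lowest library. Aco1, an aconitase that doubles as the iron sensor IRP1, averaged 15.1 ± 1.09 FPKM in KO cells and 20.2 ± 0.334 FPKM in control cells (-0.40 ± 0.072, adjusted p = 0.0234), and Blvra, biliverdin reductase, averaged 41.4 ± 6.47 FPKM in KO cells and 64.5 ± 3.55 FPKM in control cells (-0.64 ± 0.12, adjusted p = 0.0236). The call of Aco1 was lost without KO 2, KO 4, control 1, control 2, control 3 or control 4 (adjusted p 0.0519 to 0.0966) and that of Blvra without KO 1, KO 2, control 2, control 3 or control 4 (adjusted p 0.0633 to 0.1). Slc37a2, a sugar phosphate exchanger of macrophages, was at 28.9, 32.9, 32.0 and 30.3 FPKM in KO libraries, against 68.7, 71.8, 74.0 and 73.0 FPKM in control libraries (-1.19 ± 0.072, adjusted p = 6.36e-05), with a gap far larger than the spread within either group. Ggta1, which makes the alpha-galactose epitope, was at 10.6 ± 0.939 FPKM in KO cells and 22.6 ± 2.20 FPKM in control cells (-1.02 ± 0.092, adjusted p = 0.000552), and B4galnt1, a ganglioside synthase, at 14.7 ± 1.62 FPKM in KO cells and 24.0 ± 2.23 FPKM in control cells (-0.67 ± 0.10, adjusted p = 0.0102); the call of B4galnt1 was lost without control 2 or control 4 (adjusted p 0.0531 to 0.0545). Further calls were lost on the values as deposited for Aco1, Blvra and B4galnt1 (adjusted p 0.088 to 0.634) and with no filter on low values for Blvra (adjusted p = 0.0535).

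Lcp1, the actin bundler L-plastin, was at 123, 138, 147 and 109 FPKM in KO libraries, against 250.3, 264, 255 and 239.9 FPKM in control libraries (-0.97 ± 0.11, adjusted p = 0.00154). Evl, which promotes actin filament growth, averaged 42.3 ± 2.29 FPKM in KO cells and 67.5 ± 4.70 FPKM in control cells (-0.66 ± 0.080, adjusted p = 0.00286), Arhgap25, a protein that switches the GTPase Rac off, averaged 43.5 ± 2.14 FPKM in KO cells and 68.6 ± 4.35 FPKM in control cells (-0.64 ± 0.077, adjusted p = 0.00281), and Gsn, the actin severing protein gelsolin, averaged 60.3 ± 2.72 FPKM in KO cells and 79.5 ± 2.17 FPKM in control cells (-0.39 ± 0.070, adjusted p = 0.023). Evl and Arhgap25 did not pass on the values as deposited (adjusted p = 0.16 and 0.187), and Gsn lost its call without KO 1, KO 2, control 1, control 2, control 3 or control 4 (adjusted p 0.0519 to 0.118). Snx27, a sorting nexin of endosomal recycling, averaged 13.3 ± 3.69 FPKM in KO cells and 30.4 ± 4.75 FPKM in control cells (-1.15 ± 0.17, adjusted p = 0.0102), and Snx10 averaged 30.9 ± 4.90 FPKM in KO cells and 47.5 ± 1.61 FPKM in control cells (-0.62 ± 0.12, adjusted p = 0.0276), a call lost without KO 2, control 1, control 2, control 3 or control 4 (adjusted p 0.0513 to 0.106). Some calls ended too on the values as deposited for Gsn and Snx10 (adjusted p 0.197 to 0.771) and with no filter on low values for Snx10 (adjusted p = 0.0585).

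Metabolic genes outside the lists include Idh1, the cytosolic source of NADPH from isocitrate, at 69.6 ± 6.86 FPKM in KO cells and 111 ± 8.94 FPKM in control cells (-0.67 ± 0.099, adjusted p = 0.00917), a call lost without control 2 (adjusted p 0.0526), and Cyp27a1, a sterol hydroxylase, at 5.24 ± 0.395 FPKM in KO cells and 8.57 ± 1.31 FPKM in control cells (-0.61 ± 0.10, adjusted p = 0.0198), a call lost without KO 1, KO 2, control 2 or control 4 (adjusted p 0.0631 to 0.0795). Stard5, a sterol carrier, differed by -0.60 ± 0.11, adjusted p = 0.0205, a call lost without KO 1, KO 4, control 2, control 3 or control 4 (adjusted p 0.0571 to 0.0762). Dhrs3, which reduces retinal, differed by -0.52 ± 0.089, adjusted p = 0.0201, a call lost without KO 1, KO 2, KO 4, control 2, control 3 or control 4 (adjusted p 0.0551 to 0.0887). Fabp7, a fatty acid carrier, was at 5.34, 12.6, 9.58 and 8.50 FPKM in KO libraries, against 17.9, 24.5, 17.1 and 16.4 FPKM in control libraries (-1.03 ± 0.22, adjusted p = 0.0492), a call lost without KO 1, KO 4, control 1, control 2, control 3 or control 4 (adjusted p 0.0625 to 0.165). Higher in KO cells were Ahr, the aryl hydrocarbon receptor, at 1.82, 1.55, 1.92 and 1.93 FPKM in KO libraries, against 0.914, 0.894, 0.872 and 0.942 FPKM in control libraries (0.56 ± 0.080, adjusted p = 0.00872), and Dio2, which activates thyroid hormone, at 77.6 ± 10.1 FPKM in KO cells and 50.4 ± 5.04 FPKM in control cells (0.61 ± 0.12, adjusted p = 0.0298). Ahr reached 1 FPKM in KO libraries alone and did not pass on the values as deposited (adjusted p = 0.644). The call of Dio2 was lost without KO 1, KO 2, KO 4, control 2, control 3 or control 4 (adjusted p 0.073 to 0.123). Irg1, the itaconate synthase of macrophages, was low in both groups, at 1.34, 0.872, 1.17 and 1.48 FPKM in KO libraries, against 0.489, 0.356, 0.550 and 0.340 FPKM in control libraries (0.62 ± 0.11, adjusted p = 0.0213). Irg1 reached 1 FPKM in KO libraries alone and was tested in 5 of the 8 fits that left out 1 library. It lost its call without control 2 or control 4 (adjusted p 0.0887 to 0.093). Hist1h1d, a linker histone, averaged 16.5 ± 3.21 FPKM in KO cells and 9.43 ± 1.69 FPKM in control cells (0.74 ± 0.15, adjusted p = 0.0458), a call lost without KO 1, KO 2, control 2, control 3 or control 4 (adjusted p 0.0943 to 0.159). Calls were also lost on the values as deposited for Idh1, Cyp27a1, Stard5, Dhrs3, Dio2 and Hist1h1d (adjusted p 0.076 to 0.771) and with no filter on low values for Fabp7, Dio2 and Hist1h1d (adjusted p 0.0606 to 0.113). Other settings ended calls as well, with a pseudocount of 0.1 for Fabp7 (adjusted p = 0.0543) and without the trend for Fabp7 (adjusted p = 0.0516). Further calls were lost in a fit over all 31 libraries for Dio2, Hist1h1d and Irg1 (adjusted p 0.0898 to 0.162) and without KO 2 and KO 3 for Hist1h1d (adjusted p = 0.0802).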
